A study of Mus musculus with 10 samples.

Results

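This account covers the promoters of 31 genes of DNA repair and recombination in mature, unfertilised mouse eggs arrested at the second meiotic metaphase (MII oocytes). The genes were listed by name, with no methylation value in the rule but with earlier results of these data known. A deposited promoter window was taken for a gene when its centre lay within 200 bp of an annotated start of that gene. Of the 31 genes, 28 had such a window in at least 1 of 3 deposited tables and 27 had one in all 3. These 27 genes held 51 windows of the 40537 nuclear windows that all 3 tables list. Nbn, Mcm9 and Xrcc1 had no window within 200 bp, and Trp63 had windows in the tables of wild-type (WT) oocytes alone.

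All groups share the strain C57BL6/129, per the labels. There were 4 libraries from WT at 2 months ("young WT"), 3 from WT at 11 months ("aged WT") and 3 from Tet2 knockout (Tet2KO) at 2 months. Tet2 is an enzyme that oxidises 5-methylcytosine, and the sources used here do not give the knockout allele or the cells in which it is deleted. The design text names 10 oocytes per sample while the extraction protocol speaks of a single oocyte, so the input of a library is uncertain. DNA was treated with bisulfite, after which a cytosine that still reads as cytosine counts as methylated. Methylcytosine and hydroxymethylcytosine are read alike by this chemistry.

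The authors deposited 1 table per group, in which the libraries of the group are pooled. A window spans 2000 bp, and for each the table gives whole-number counts of methylated and of all CpG calls. The level used here is 100 times methylated calls over all calls, in percent, and a difference between 2 pools is given in percentage points ("points"). With 1 value per group there was no replicate to test against, so no p-value is given. Wilson 95% intervals for levels and Newcombe 95% intervals for differences cover counting error only. Spread between animals or libraries is not in them, and neighbouring calls or PCR copies of 1 molecule are not independent, so the intervals are too narrow. Each of the 27 measured genes is given by 1 window, that with the most calls in its shallowest pool, and those windows rested on 32 to 807 calls.

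The tables as a whole held 15046863 calls for young WT, 30431118 for aged WT and 8610762 for Tet2KO. A median shared window had 131, 245 and 79 calls in that order, depths at which a count of 0 leaves room for 2.29%, 1.22% and 3.80%. This room, and each level that a 0 is said to allow below, is 3 calls as a percentage of all calls. It is tighter than the upper end of the Wilson interval, which for 0 of 207 calls at Mre11a is 1.82% in place of 1.45%. The oocyte label was checked at imprinted genes. Of 10 genes that acquire methylation in the oocyte, 9 were at 75% to 100% in all pools, and the remaining gene, Peg10, was at 65.0% to 70.1%. Windows at the starts of H19 and Rasgrf1, genes with an imprint set in sperm, were at 0% to 4.21%. That at the start of Meg3, another such gene, was at 23.4%, 6.67% and 2.22% in young WT, aged WT and Tet2KO. Whether these windows cover the stretch methylated in sperm was not examined, so low levels there are a weak check. Meg3 in young WT and Peg10 in all pools were at intermediate levels, and the cause was not tested.

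Broken or damaged DNA is repaired by several routes. A double-strand break is sensed by the Mre11a, Rad50 and Nbn complex and the kinases Atm and Atr, and is then either joined end to end or repaired by homologous recombination, which copies an intact strand. Meiosis makes such breaks on purpose and repairs them with dedicated factors, so that homologous chromosomes cross over before the oocyte arrests. Mismatch, base excision and nucleotide excision repair remove wrong or damaged bases from 1 strand. Oocytes rest for months in the ovary and depend on these routes to keep their genome intact. Methylation of CpGs around a start generally accompanies silencing of a promoter, while in growing oocytes DNA methylation is laid down mainly over transcribed gene bodies.

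The sequence just upstream of 4 starts shows where methylation can occur. Each line gives the 250 bases before a RefSeq start (GRCm38.p6, the build that mm10 represents), 5′ to 3′ on the strand of the gene, with CpG sites in capitals. Rad51c and Mlh3 had the largest difference with age and with Tet2KO, Xpa was the lowest in both of those comparisons, and Brca1 had 0 methylated calls at the greatest depth. The Xpa sequence was added to the set after the values were seen. The stretches lie at chr11:87404955-87405204 (Rad51c), chr12:85270592-85270841 (Mlh3), chr4:46196312-46196561 (Xpa) and chr11:101551956-101552205 (Brca1), all on the minus strand.
Rad51c: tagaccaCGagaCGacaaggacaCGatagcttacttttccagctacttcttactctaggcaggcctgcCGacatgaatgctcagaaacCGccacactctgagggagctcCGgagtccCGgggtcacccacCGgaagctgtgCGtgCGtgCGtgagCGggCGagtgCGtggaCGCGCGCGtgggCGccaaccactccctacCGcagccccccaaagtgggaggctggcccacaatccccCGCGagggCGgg
Mlh3: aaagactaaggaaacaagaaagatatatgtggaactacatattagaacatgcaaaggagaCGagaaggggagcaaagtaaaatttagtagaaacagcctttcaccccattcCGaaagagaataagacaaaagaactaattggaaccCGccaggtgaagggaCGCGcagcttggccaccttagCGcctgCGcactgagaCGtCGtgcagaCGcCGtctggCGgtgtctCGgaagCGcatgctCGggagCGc
Xpa: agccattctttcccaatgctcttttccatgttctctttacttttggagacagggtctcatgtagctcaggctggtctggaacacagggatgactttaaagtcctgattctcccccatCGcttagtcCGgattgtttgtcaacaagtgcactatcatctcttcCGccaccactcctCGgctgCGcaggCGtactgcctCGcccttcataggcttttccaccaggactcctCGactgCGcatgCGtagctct
Brca1: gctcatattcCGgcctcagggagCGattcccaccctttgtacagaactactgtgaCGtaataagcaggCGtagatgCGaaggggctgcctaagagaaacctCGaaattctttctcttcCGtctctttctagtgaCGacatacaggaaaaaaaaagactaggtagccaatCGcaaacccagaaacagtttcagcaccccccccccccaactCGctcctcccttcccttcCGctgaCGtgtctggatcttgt

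These stretches held 23 CpG sites at Rad51c, 16 at Mlh3, 10 at Xpa and 12 at Brca1. Of the 31 genes, 25 were in the RefSeq promoter table, with a median of 16 CpG sites in the 250 bases and a range from 4 at Msh4 to 29 at Blm and Mcm9. The median over 17492 protein-coding genes in that table was 10. For a measured repair gene the RefSeq start nearest to its window was taken, and for the other genes the first one listed. At Msh4 the stretch precedes the RefSeq transcript start, while the window that gives the gene its level lies at an upstream start. The median GC content was 60.4% for the repair genes and 55.2% for all, and the ratio of observed to expected CpGs was 0.822 and 0.536. Of the 25 stretches, 18 held more CpG sites than that overall median, 2 held as many and 5 held fewer. The letters CCAAT, on either strand, occurred in 16 of the 25 stretches (64%) and in 36.3% of all. The letters GGGCGG, which contain a CpG, occurred in 16 of 25 (64%) and in 42.7% of all, and TGACGTCA in 1 (Brca2) and in 2.01%. A match describes the letters in this stretch and does not show a binding site.

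Promoters of the repair genes carried little methylation in all 3 pools. The median level over the 27 genes was 1.53% in young WT, 1.61% in aged WT and 1.69% in Tet2KO, against 3.23%, 2.72% and 2.17% over all shared windows. With 1 window per protein-coding gene, matched in the same way, the median over 15923 genes was 2.50%, 2.21% and 1.72%, so in Tet2KO the repair genes lay close to it. Levels under 5% were found for 23 genes in young WT, 24 in aged WT and 20 in Tet2KO, where 58.9%, 64.2% and 65.2% of all windows were under 5%. Those counts are 85.2%, 88.9% and 74.1% of the 27 genes. Among the 15923 genes, 66.4%, 73.2% and 73.7% were under 5%, so the share in Tet2KO was again close. Of the 27 repair genes, 16 were under 5% in all 3 pools and 25 under 10%. The exceptions, with a pool at 10% or more, were Rad51c and Mlh3. None of the 27 reached 50% in any pool. In young WT 995 of the 15923 genes did so, a share so small that a list of 27 without any is not set apart by it.

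**Figure D1:**
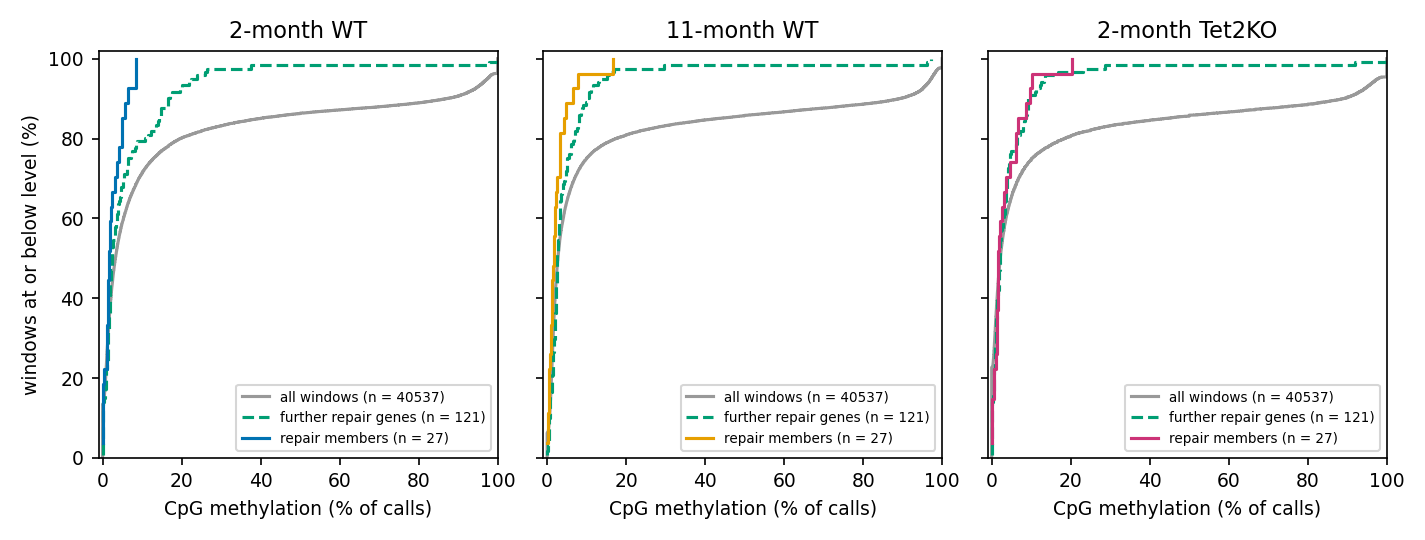
Cumulative share of windows (vertical axis, %) at or below a CpG methylation level (horizontal axis, % of calls), with 1 panel per pool, for all 40537 shared windows, 121 further repair genes and the 27 repair genes described here. The curve of the 27 genes ends at 8.497% in young WT, 16.7% in aged WT and 20.3% in Tet2KO, while that of all windows runs to 100%.

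The 5 measured genes that sense damage and set the checkpoint were under 5% in all pools, and 1 of them, Mre11a, differed with age by more than its counting error. Atm, the kinase that answers double-strand breaks, was at 1.30% of 231 calls in young WT, 1.23% of 569 calls in aged WT and 0.649% of 154 calls in Tet2KO. Atr, the kinase that answers single-stranded DNA at stalled forks, was at 1.22% of 245, 0.991% of 807 and 1.52% of 198 calls in the same order. Rad50, the coiled-coil subunit that bridges broken ends, was at 1.90% of 158, 3.33% of 180 and 1.65% of 243 calls. The intervals of Atm, Atr and Rad50 overlapped between the pools.

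Mre11a, the nuclease of the same complex, had 0 of 207 methylated calls in young WT, which allows a level of up to 1.45%. It was at 4.37% of 366 calls in aged WT (interval 2.71 to 6.98) and 1.49% of 134 calls in Tet2KO. The 11-month pool was the highest of the 3, and its difference from young WT was 4.37 points (interval 1.90 to 6.98). Trp53, the p53 checkpoint factor, was at 2.02% of 99 and 1.92% of 156 calls in WT at 2 and 11 months, and at 0 of 49 calls in Tet2KO, which allows up to 6.12%. Trp63, a p53 relative that guards oocyte quality, had 0 of 21 methylated calls in young WT and 2 of 37 (5.41%) in aged WT.

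Homologous recombination genes varied more among themselves. Brca1, which helps commit a break to recombination, was at 3.64% of 220 calls in young WT, 0% of 257 calls in aged WT and 1.34% of 149 calls in Tet2KO. The 0 at 11 months allows up to 1.17%, and the difference with age was -3.64 points (interval -7.01 to -1.32). That window is centred 194 bp from the Brca1 start. Another, centred 75 bp from the same start, was at 4.55% of 176, 0% of 213 and 0.775% of 129 calls. Brca2, a mediator of strand exchange, had the narrowest spread of the 27 genes, with 1.49% of 269, 1.61% of 311 and 1.44% of 208 calls. Its levels thus lay within 0.165 points of each other.

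Rad51c, a homologous recombination factor, was at 5.59% of 304 calls in young WT (interval 3.52 to 8.77). It was at 16.7% of 335 calls in aged WT (13.1 to 21.1) and at 10.1% of 69 calls in Tet2KO (5.0 to 19.5). The intervals of the WT pools did not overlap, and that of Tet2KO overlapped both. The age difference of 11.1 points (interval 6.31 to 16.0) was the largest of the 27 genes in that comparison. The gene had 3 windows, shifted against each other by up to 541 bp, and in aged WT they held 50, 49 and 56 methylated calls of 334, 334 and 335. The 3 windows overlap over most of their length, so their similar counts are not separate evidence for the level at 11 months. The value given above is from the third, which is centred on the start of the neighbour Tex14, on the other strand 111 bp from that of Rad51c. The others, centred 18 bp and 1 bp from 2 annotated Rad51c starts, were at 15.0% and 14.7% in aged WT, 4.61% and 5.23% in young WT and 5.97% and 5.97% in Tet2KO.

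Blm, the helicase that undoes recombination intermediates, had 0 of 232 methylated calls in young WT, which allows up to 1.29%. It was at 1.52% of 395 calls in aged WT and at 8.70% of 92 calls in Tet2KO (interval 4.47 to 16.2). The Tet2KO pool was the high one, and its intervals did not overlap those of either WT pool. Mcm8, a helicase of recombination, was at 4.88% of 164, 7.69% of 208 and 2.01% of 149 calls, with overlapping intervals. Exo1, the exonuclease that trims break ends and acts in mismatch repair, was at 1.51% of 464, 3.23% of 433 and 3.62% of 138 calls. Rad54l, a motor protein of recombination, was thinly covered, with 2 of 41 methylated calls (4.88%), 6 of 124 (4.84%) and 0 of 33. That 0 allows up to 9.09%, so small differences could not be resolved there. The interval of the Tet2KO difference from young WT ran from -16.1 to 6.13 points.

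The Fanconi anaemia route repairs strands that are linked to each other. Fanca, of its core complex, had 0 of 111 methylated calls in young WT, 0.735% of 272 calls in aged WT and 9.59% of 73 calls in Tet2KO (interval 4.72 to 18.5). Fancd2, which the core complex marks with ubiquitin, was at 2.26% of 265, 1.18% of 169 and 6.25% of 64 calls. Tet2KO was the highest pool at both genes. Its interval lay above those of both WT pools at Fanca and overlapped both at Fancd2.

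**Figure D2:**
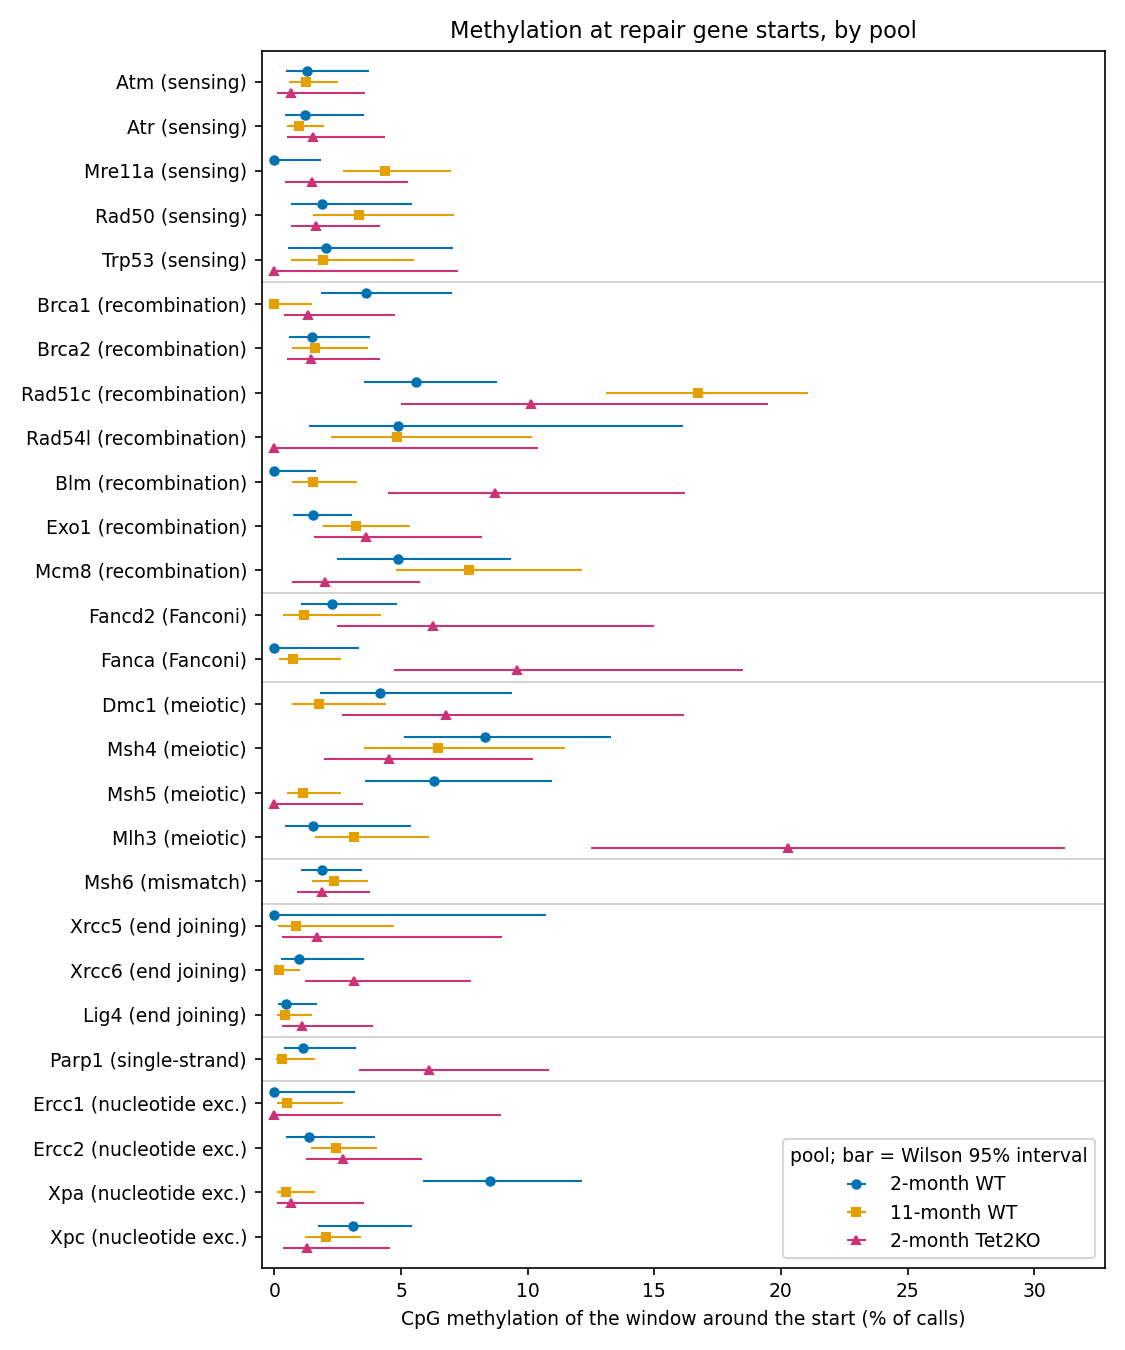
CpG methylation (horizontal axis, % of calls) of the window at each of the 27 genes, grouped by repair route, with a point for each of the 3 pools and bars for Wilson 95% intervals of counting error. Most points lie under 5%; Rad51c stands out at 16.7% in aged WT and Mlh3 at 20.3% in Tet2KO.

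Among the genes of meiotic recombination, Mlh3, which with its partner resolves crossovers, was low in both WT pools, at 1.53% of 131 calls at 2 months and 3.16% of 253 calls at 11 months. In Tet2KO it was at 20.3% of 69 calls (interval 12.49 to 31.22), the highest level of any of the 27 genes. That value rests on 14 methylated calls. The Tet2KO difference was 18.8 points (interval 10.1 to 29.8) against young WT and 17.1 points (8.79 to 28.2) against aged WT. By the deposited mean fraction, which averages the methylated share over covered CpG positions, Mlh3 was at 1.89%, 11.8% and 25.5%, so its level at 11 months depends on how calls are weighted.

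A second Mlh3 window, shifted 27 bp away from the gene body, gave a lower value. Between the windows the Tet2KO calls dropped from 69 to 65 and the methylated calls from 14 to 10. The net change was thus 4 calls, all methylated, and the level of the shifted window was 15.4%. In young WT the same shift changed neither count.

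Msh5, which with Msh4 stabilises crossover intermediates, was at 6.32% of 174 calls in young WT, 1.13% of 443 calls in aged WT and 0% of 106 calls in Tet2KO. The young WT pool was the high one, with differences of -5.19 points with age (interval -9.88 to -2.06) and -6.32 points in Tet2KO (-11.0 to -1.87). By the deposited fraction its young WT level was 2.84%. Msh4 had windows at 2 annotated starts 1247 bp apart. The upstream window was at 8.33% of 180, 6.45% of 155 and 4.55% of 110 calls, and that at the RefSeq transcript start was at 2.01% of 149, 2.84% of 141 and 0% of 109 calls. The upstream window was the higher in all 3 pools. Dmc1, the recombinase of meiosis, was at 4.17% of 120, 1.75% of 229 and 6.78% of 59 calls, with overlapping intervals.

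Mismatch repair and end joining genes were under 5% in all pools. Msh6, which takes part in recognising mismatches, was at 1.90% of 527, 2.36% of 762 and 1.86% of 376 calls, and it had the most covered CpG positions of the 27 genes (137, 143 and 136). Lig4, the ligase of end joining, was at 0.461% of 434, 0.409% of 489 and 1.09% of 184 calls. A window at another annotated Lig4 start, 1387 bp away, was at 0% of 100, 0.588% of 340 and 4.92% of 61 calls, the last with 3 methylated calls. In the first of these windows each pool held 2 methylated calls. Its difference between Tet2KO and young WT had an interval of -0.813 to 3.44 points. At the other start the Tet2KO difference was 4.92 points (interval 0.00607 to 13.5) against young WT and 4.33 points (0.754 to 12.9) against aged WT. In the counts below, Lig4 is taken by the first window. The windows overlap in part, and the Tet2KO level depends on the start taken. Xrcc6 and Xrcc5 encode Ku70 and Ku80, which cap broken ends. Xrcc6 was at 0.990% of 202, 0.183% of 547 and 3.12% of 128 calls. Xrcc5 had 0 of 32, 1 of 116 and 1 of 59 methylated calls, and its young WT depth allows up to 9.38%.

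Parp1, which marks single-strand breaks with chains of ADP-ribose, was at 1.12% of 268 calls in young WT, 0.286% of 350 calls in aged WT and 6.10% of 164 calls in Tet2KO (interval 3.35 to 10.9). The Tet2KO pool was the high one, with 10 methylated calls against 3 and 1.

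Nucleotide excision genes were low with 1 exception. Xpa, which verifies the damaged strand, had 26 methylated of 306 calls, a level of 8.497%, in young WT (interval 5.86 to 12.2), 0.442% of 452 calls in aged WT and 0.641% of 156 calls in Tet2KO. The level in young WT lay above both other pools, with intervals that did not overlap, and by the deposited fraction it was 13.2%. Xpc, the first sensor of distorting lesions, was at 3.09% of 356, 2.06% of 681 and 1.29% of 155 calls. That Xpc window is centred 160 bp from the annotated start. Another, centred 1 bp from it, was at 1.99% of 352, 1.76% of 681 and 0% of 153 calls. Ercc2, a helicase that opens the lesion, was at 1.38% of 218, 2.43% of 576 and 2.73% of 220 calls. Ercc1, part of the nuclease that cuts beside the lesion, had 0 of 117, 1 of 206 and 0 of 39 methylated calls. Levels at these last 3 genes overlapped between the pools.

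The comparison of aged with young WT oocytes addresses maternal age. None of the 27 genes differed by 20 points or more in either direction, where 2.78% of all shared windows were higher and 2.76% lower by that much. The median difference was -0.0393 points, with 13 genes higher and 14 lower, and the median over all windows was 0. The interval excluded 0 on the higher side at 2 genes, Rad51c and Mre11a (7.41% of the 27, with 10.0% of all windows), and on the lower side at 3, Xpa, Msh5 and Brca1 (11.1%, with 16.3% of all windows). These counts are too small to set the genes apart from all windows, among which more were lower than higher as well. Of the 27 genes, 24 differed by less than 5 points.

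The comparison of Tet2KO with WT at 2 months addresses the loss of Tet2. Again no gene of the 27 differed by 20 points or more, where 3.29% of windows were higher and 3.22% lower. The median difference was 0.291 points against -0.241 over all windows, with 14 genes higher, 12 lower and 1 equal. By the deposited fraction the split was 18 higher and 8 lower. The interval excluded 0 on the higher side at 4 genes (14.8%, with 7.58% of all windows), which were Mlh3, Fanca at 9.59 points (3.68 to 18.5), Blm at 8.70 points (4.17 to 16.2) and Parp1 at 4.98 points (1.5 to 9.80). It did so on the lower side at Xpa at -7.86 points (-11.6 to -3.94) and Msh5 (7.41%, with 13.2% of all windows). Xpa and Msh5 were the genes lower in both comparisons, which share the young WT pool. Over the 15923 protein-coding genes with 1 window each, 7.69% were higher and 14.9% lower. The share of higher genes among the 27 lay above both backgrounds, but it rests on 4 genes without a replicate.

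**Figure D3:**
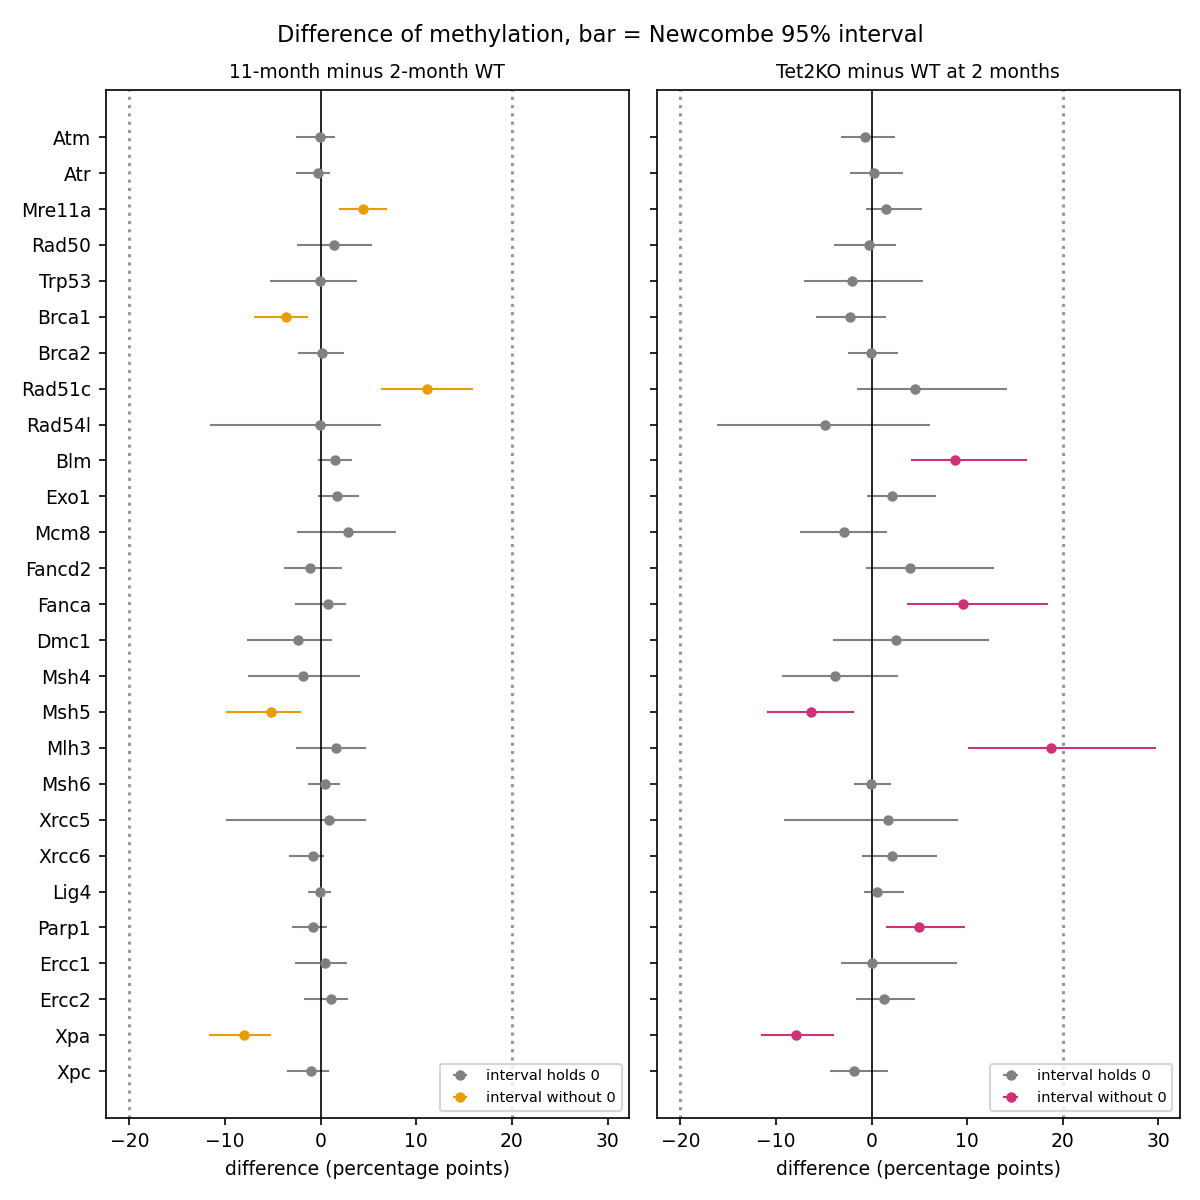
Difference of methylation (horizontal axis, percentage points) at the 27 genes for aged minus young WT (left) and Tet2KO minus WT at 2 months (right), with Newcombe 95% intervals of counting error; coloured points have intervals without 0, and dotted lines mark 20 points in either direction. No point reaches a dotted line, and Mlh3 in Tet2KO comes nearest at 18.8 points.

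Tet2KO at 2 months and WT at 11 months differ in both age and genotype. No gene of the 27 differed by 20 points or more, where 2.09% of windows were higher in Tet2KO and 1.94% lower. The interval excluded 0 on the higher side at 7 genes (25.9%, with 7.77% of all windows) and on the lower side at Mcm8 alone, at -5.68 points (-10.3 to -0.946), where 7.88% of windows were lower. The 7 were Mlh3, Fanca at 8.85 points, Blm at 7.18, Parp1 at 5.81, Fancd2 at 5.07, Dmc1 at 5.03 and Xrcc6 at 2.94. At Fancd2 and Dmc1 the interval began at 0.213 and 0.137 points, so these rest on a margin of few calls. Over the 15923 protein-coding genes with 1 window each, 8.35% were higher and 8.24% lower. The Tet2KO pool is the shallowest of the 3, with a median of 134 calls over the 27 windows against 218 in young and 335 in aged WT. The part of depth in these counts was not tested.

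Methylation was low at the starts and high in the interiors of the repair genes that had both kinds of window. The tables list 11 windows that lie inside a listed gene, more than 2000 bp from its ends and from the RefSeq starts used here. They hold no start of another protein-coding or long noncoding RNA gene in RefSeq, and other kinds of gene were not searched. Each carries the name of an Ensembl transcript, so an interior window can be a further annotated start of the gene. They fell in 7 genes, 7 of the windows being in all 3 tables and 4 in 2 tables. All 29 of their values were at 80% or more, from 81.2% to 100%, on 11 to 202 calls. In Ercc2 a window 4626 bp from the start was at 98.0% of 50 calls in young WT, 98.5% of 202 in aged WT and 93.6% of 47 in Tet2KO. A window inside Parp1, 18310 bp from its start, was at 97.6% of 41, 95.05% of 101 and 100% of 42 calls. The starts of both genes were at 6.10% or less in all pools.

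Brca2 had 3 interior windows in all tables, at 95.8%, 100% and 100% in young WT, 86.7%, 98.0% and 84.6% in aged WT and 96.2%, 100% and 90.9% in Tet2KO, on 11 to 50 calls each. The interior of Exo1 was at 96.0% of 25, 91.8% of 49 and 100% of 22 calls. Windows inside Rad50, Mlh3 and Trp63 were listed for the WT pools alone, at 100% and 100%, 97.6% and 98.3%, and 100% and 94.1% at 2 and 11 months. The Trp63 window lay 90172 bp inside the gene, which is known to have an alternative internal promoter, and its internal RefSeq starts were not used here. Over the 7 windows in all tables, found in Exo1, Parp1, Brca2 and Ercc2, 97.2% of 213 calls were methylated in young WT, 96.2% of 551 in aged WT and 97.6% of 207 in Tet2KO. The start windows of those same genes were at 1.39%, 2.04% and 3.29%. A further window inside Mcm9 that holds the start of Asf1a, a histone chaperone, was at 5.96% of 688, 1.47% of 1088 and 2.34% of 214 calls, low in all pools.

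**Figure D4:**
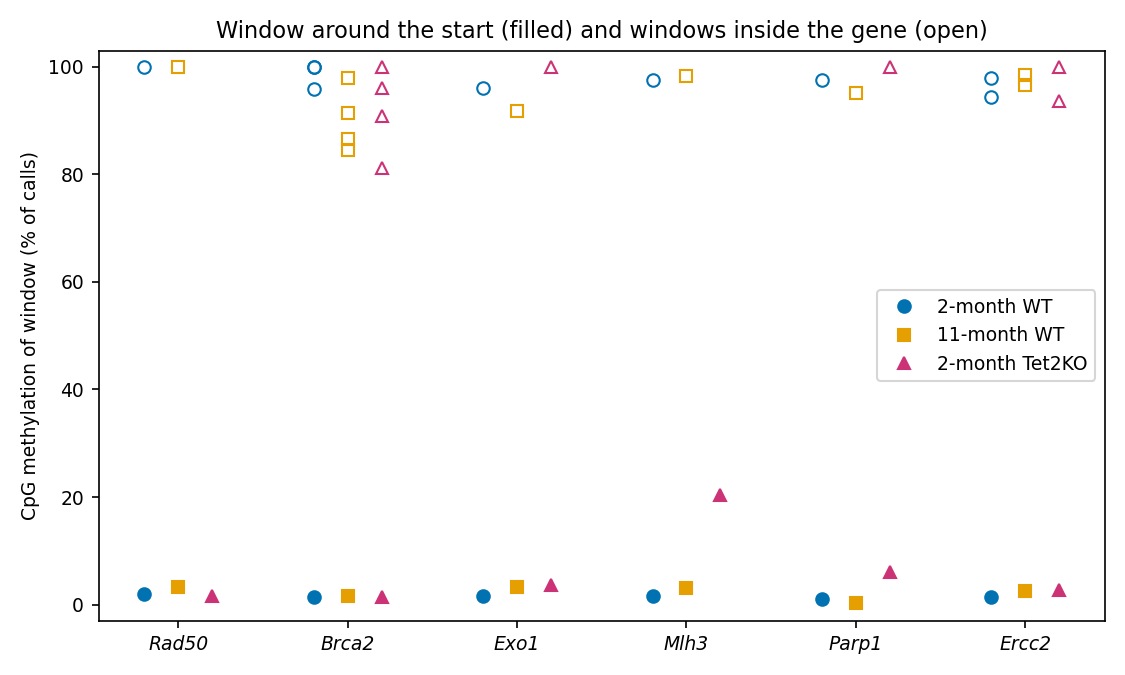
CpG methylation (vertical axis, % of calls) of the window around the start (filled) and of windows inside the gene (open) for 6 repair genes, by pool (colour and shape). Start windows lie between 0.286% and 20.3% and interior windows between 81.2% and 100%, with none in between.

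Many of the starts are shared with a neighbour. At 12 of the 27 genes the window held the RefSeq start of another gene, 2 to 376 bp from the repair gene's own start. At 9 of these the neighbour runs on the opposite strand; for the other 3 the strand of the repair gene was not used here. Brca1 shares its window with Nbr1 (152 bp), Trp53 with Wrap53 (109 bp), Atm with Npat (376 bp) and Mre11a with Ankrd49 (81 bp). Xrcc6 shares it with Desi1 (149 bp), Lig4 with Abhd13 (37 bp) and Xpc with Lsm3 (147 bp). At such starts a level belongs to both promoters. The search covered protein-coding and long noncoding RNA genes whose strand was at hand. Among those, no other start lay in the windows of Mlh3, Xpa, Blm, Fanca, Parp1 and Msh5.

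The distance rule set the last values. Just inside 200 bp lay the windows of Exo1 at 187 bp and of Brca1 at 194 bp, given above. Just outside lay a second Xrcc6 window at 205 bp, with 0.446%, 0.178% and 3.12%, and a second Atm window at 219 bp, with 1.28%, 2.54% and 6.67%. That Atm window is centred on the start of the neighbour Npat, on the other strand, so its level is not that of Atm alone. Against the inner Atm window, 306 bp away, it held a net 10 more methylated calls among a net 11 more calls in Tet2KO. Within 500 bp lay windows of Nbn at 0%, 1.18% and 1.60%, of Mcm9 at 3.23%, 2.55% and 0%, and of Xrcc1 at 1.99%, 1.87% and 0% on one side of its start and 6.32%, 5.05% and 8.95% on the other.

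Other genes of the same routes gave a wider setting. Of the further repair genes listed, 121 had a window in all 3 tables and 6 did not. Of the 121, 62 were under 5% in all pools. Their median levels were 2.41% in young WT, 2.53% in aged WT and 2.06% in Tet2KO. Past 20 points, 0 of the 121 were higher with age and 2 lower, in Tet2KO against young WT 0 were higher and 1 lower, and in Tet2KO against aged WT 1 was higher and 0 lower. The shares of all windows past 20 points were 1.94% to 3.29%, as given above. With age the interval excluded 0 on the higher side at 13 of the 121 (10.7%) and on the lower side at 29 (24.0%). All windows gave 10.0% and 16.3%, and the 15923 genes with 1 window each gave 9.87% and 18.7%. In Tet2KO against young WT the counts were 10 higher (8.26%) and 20 lower (16.5%). All windows gave 7.58% and 13.2%, and the 15923 genes gave 7.69% and 14.9%. Lower values than in young WT were thus the more frequent in both comparisons, which share that pool, among these genes and among all windows.

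The further genes past 20 points were Parp2 and Dntt. Parp2, a second ADP-ribose polymerase, was at 25.8% of 329 calls in young WT, 2.96% of 203 in aged WT and 0% of 94 in Tet2KO. The young WT pool was the high one, as it also was at Xpa and at the imprinted gene Meg3. These are not the only such genes. Against young WT, 29 of the 121 were lower by the interval with age and 13 higher, and in Tet2KO 20 lower and 10 higher. Over the 15923 genes with 1 window each, all calls together were at 6.10% in young WT, 4.35% in aged WT and 4.25% in Tet2KO. The part of the young WT pool as a whole in these values was not tested. Dntt, which adds bases to ends in lymphocytes, was at 26.5% of 113, 2.17% of 46 and 23.1% of 26 calls, low at 11 months alone. By the deposited fraction Dntt was at 14.5%, 0.840% and 42.9%.

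High methylation at a repair start was rare but present outside the 27 genes. Mutyh, the glycosylase that removes adenine opposite oxidised guanine, was at 100% of 41, 97.2% of 72 and 100% of 61 calls. Slx4, the scaffold of structure-specific nucleases, was at 97.8% of 46, 96.1% of 51 and 92.0% of 25 calls. These were the 2 of 121 further genes at 50% or more in all pools, with intervals of the differences that held 0 in each comparison.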

How the data were processed

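The submitters' processing notes name Trimmomatic, Bismark (version field 12.5) and the mm10 build, without roles or order (further steps: not given in the sources used here). Per the labels, the authors deposited 1 table per group of pooled libraries. Its deposited counts are whole numbers of methylated and of all CpG calls per window and of covered positions. Its deposited fraction is the mean methylated share over covered positions. In the young WT table the final line breaks off and was left out. Starts came from RefSeq (GRCm38.p6): transcript starts, the 5′ end of the gene model, or both ends where no strand was at hand (Rad50, Nbn, Trp63, Exo1, Fancd2 and Xpc). Levels, intervals and medians were computed in Python 3.11.15 with pandas 2.3.3 and scipy 1.17.1. The Newcombe intervals and the 20-point rule were tried on simulated calls drawn independently. Calls in these data are not independent, so that trial does not show that the intervals are wide enough here. Tables with 1 pooled value per group allowed no test, in place of the logistic model foreseen for values per library. Of the listed genes, every one with a window is given; of the further genes, those 20 points apart or at 50% or more in all pools are named. The members and lists were chosen with earlier results of these data known. Mitochondrial windows stayed out. Alternatives were the deposited fraction, at least 50 calls, the nearest window, the mean over windows, 500 bp, and leaving out windows over 5 times the median calls per position.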

Additional observations from a re-analysis of the deposited data

How the results depend on the processing

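The counts of genes 20 points apart changed in few settings. By the deposited fraction 1 of the 27 genes, Mlh3, was past 20 points in Tet2KO against young WT, in place of 0. For the further repair genes the deposited fraction gave 0 (in place of 2) with age and 3 (in place of 1) in Tet2KO against young WT, and at least 50 calls in every pool gave 1 with age and 0 (in place of 1) in Tet2KO against aged WT. The cause was not tested. The other 67 values of counts and medians stayed within 1.5 times or, for medians, 1 point. Median differences over the 27 genes ranged from -0.0518 to 0.190 points with age and from 0.273 to 0.989 in Tet2KO against young WT. Of 474 single-gene differences recomputed, 11 left their counting interval, 9 of them by the deposited fraction (among them Xpa at -12.6 points, Mlh3 at 9.86 and Xpc at 3.72 with age, the last in place of -1.03) and 2 by taking windows within 500 bp, both at Atm. The Atm window taken there is the one centred on the start of Npat. Intervals reflect depth, which was lowest in Tet2KO. Leaving out a library was not run, since the tables hold pooled values. No paired analysis was possible because each table gives 1 pooled value per group.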
